A study of Mus musculus with 18 samples.

Results

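The mouse Hox genes, which encode homeodomain transcription factors, were described in hematopoietic stem and progenitor cells of fetal liver (FL) and adult bone marrow (BM). The members are all genes whose single symbol on the array is Hox followed by the cluster letter a, b, c or d and a paralog number. They number 33 of the 19505 genes tested, 8 in the HoxA cluster, 9 in HoxB, 9 in HoxC and 7 in HoxD, each measured by 1 probe set. Other protein-coding Hox genes of these clusters were not analysed here. The mice were C57Bl/6J. The liver donors were embryos of E13.5, and the marrow donors were adults of 3 to 12 months. By their titles the 18 Affymetrix Clariom S arrays form 6 groups of 3, lettered a, b and c: FL long-term hematopoietic stem cells (FL LT-HSC), FL short-term hematopoietic stem cells (FL ST-HSC), FL multipotent progenitors (FL MPP), and BM LT-HSC, BM ST-HSC and BM MPP. All were sorted from Sca-1 and Kit positive, lineage-negative cells by Cd150 and Cd48, so that every group shares these gates and no group is mutant or treated by its title. The arrays' descriptions differ from the titles: they speak of transplanted bone marrow cells that carry a guide RNA, sgEzh2 for 4 FL arrays (LT-HSC a, ST-HSC a, MPP a and MPP b) and sgLuc for the other 14 arrays.

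Hox genes lie in clusters in which gene order along the chromosome follows the order of expression along the body axis, and members of the same paralog number resemble each other across clusters. In blood formation, genes of the HoxA and HoxB clusters are known to be active in immature cells and to be shut off as cells mature, with Meis and Pbx proteins as DNA-binding partners. Trithorax-group proteins such as MLL keep the clusters active and Polycomb proteins keep them silent.

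Promoter windows in the RefSeq table of GRCm38.p6 matched 17 of the 33 members. The 250 bases before the start of 4 HoxA members are printed here because these 4 genes shared 1 order of signals among the FL groups, highest in ST-HSC and lowest in MPP. Hoxa10 had this order too, but the table gives it 2 windows, with 7 and 20 CG dinucleotides, and none of them is printed because the files do not say which start applies. All 4 lie on the minus strand, at chr6:52164832-52165081 for Hoxa2, chr6:52213068-52213317 for Hoxa3, chr6:52204588-52204837 for Hoxa5 and chr6:52208673-52208922 for Hoxa6, and they are written 5′ to 3′ with CG dinucleotides in capitals.
Hoxa2: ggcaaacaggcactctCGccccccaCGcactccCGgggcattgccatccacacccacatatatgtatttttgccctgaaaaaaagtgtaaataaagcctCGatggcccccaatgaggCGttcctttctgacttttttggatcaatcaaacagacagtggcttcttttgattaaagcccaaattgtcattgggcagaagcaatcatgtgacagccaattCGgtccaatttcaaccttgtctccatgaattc
Hoxa3: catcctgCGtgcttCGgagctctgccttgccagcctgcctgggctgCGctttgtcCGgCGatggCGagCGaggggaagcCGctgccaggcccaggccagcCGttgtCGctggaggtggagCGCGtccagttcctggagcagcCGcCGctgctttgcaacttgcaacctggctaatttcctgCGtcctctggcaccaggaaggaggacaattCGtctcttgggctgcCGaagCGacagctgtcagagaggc
Hoxa5: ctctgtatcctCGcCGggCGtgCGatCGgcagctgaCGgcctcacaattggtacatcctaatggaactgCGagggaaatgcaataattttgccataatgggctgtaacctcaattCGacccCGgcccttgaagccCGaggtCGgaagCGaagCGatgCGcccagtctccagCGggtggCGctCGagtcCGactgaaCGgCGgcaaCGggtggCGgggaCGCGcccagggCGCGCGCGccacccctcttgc
Hoxa6: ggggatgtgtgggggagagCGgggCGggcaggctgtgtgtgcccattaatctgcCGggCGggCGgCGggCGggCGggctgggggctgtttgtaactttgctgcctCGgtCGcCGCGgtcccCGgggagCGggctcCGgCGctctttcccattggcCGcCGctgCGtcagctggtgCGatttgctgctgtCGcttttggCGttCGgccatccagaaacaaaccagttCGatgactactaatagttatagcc
CG dinucleotides, where vertebrate DNA is methylated and where CXXC proteins such as MLL bind when it is not, numbered 6 before Hoxa2, 18 before Hoxa3, 28 before Hoxa5 and 24 before Hoxa6, against a median of 6 over all 32851 windows of this length. As many or more were found in 50.4% of all windows for Hoxa2, 21.7% for Hoxa3, 7.61% for Hoxa5 and 12.0% for Hoxa6. On either strand, the Meis and TGIF core TGACAG lay before Hoxa2 and Hoxa3 and before no other member with a window, and 15.9% of all windows held it. The Pbx-Hox core TGATTNAT lay before Hoxa2 and Hoxd11, with 2.82% of all windows holding it. The NF-Y core CCAAT was found in 12 of the 19 member windows, those of Hoxa2, Hoxa5 and Hoxa6 among them, and in 33.8% of all windows, and TATAAA in 3 member windows and 12.4% of all windows. None of these 4 motifs contains another, and a match describes letters only.

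Over all genes, the correlation between arrays was 0.960 to 0.994 within groups and 0.934 to 0.988 between groups. The labels do not state whether 1 group's arrays stem from different animals. The p-values therefore refer to the spread among these samples alone, which may be technical. In bulk samples, fewer cells of a type and less RNA per cell cannot be told apart. The sort genes followed the labels: Slamf1 (Cd150) averaged 9.31, 7.49 and 6.71 on the log2 scale in FL LT-HSC, FL ST-HSC and FL MPP and 9.66, 8.04 and 7.25 in the same populations of BM, and Cd48 was highest in MPP of both sources (12.35 in FL and 12.26 in BM). Ezh2 averaged 10.71, 10.61 and 10.73 in FL LT-HSC, FL ST-HSC and FL MPP, against 10.51, 10.33 and 10.77 in the same populations of BM. Of 9 neutrophil markers all were measured, and their mean log2 signal lay between 7.15 and 8.37 in the 9 FL arrays, against 11.29 to 13.06 in the 9 BM arrays, while the mean of 12 hepatocyte markers lay between 7.49 and 9.13 in FL, against 7.32 to 7.58 in BM. The interquartile range of signals was 2.93 to 3.15 in 14 arrays, and 4 arrays were narrower at 2.56 to 2.67: array b of FL LT-HSC, arrays b and c of BM ST-HSC and array c of BM LT-HSC. BM LT-HSC c also stood apart in its markers. Its neutrophil mean was 13.06, against 11.83 and 12.03 in arrays a and b of that group, its B cell mean (8 of 9 markers measured) was 10.14, against 9.06 and 9.11, and its Cd48 signal was 11.40, against 9.58 and 9.98. Their part in the Hox results was not tested. Below, the counts of Hox calls that change without this array are given with and without it, though not every changed call is named.

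Signals are compared within a gene, since different probe sets are not on a common scale. As a description of background, the mean signal of 1425 odorant, pheromone and trace amine receptor genes, which belong to sensory neurons, was used: 95% of them averaged under 6.95. Against this receptor range, 20 of the 33 Hox members lay above it in at least 1 group and 18 in all 6 groups. The median signal of each array, 7.76 to 7.85, also lay above the range, so signals above it are common. With the 90th and the 99th percentile in place of the 95th, 23 and 13 members lay above. By cluster, 8 of 8 HoxA, 7 of 9 HoxB, 4 of 9 HoxC and 1 of 7 HoxD members exceeded the range in some group. By paralog number, 5 of 6 members of groups 1 to 3, 9 of 12 members of groups 4 to 8 and 6 of 15 members of groups 9 to 13 did. Hoxb6 exceeded it in 4 groups and Hoxc13 in 2. The members that stayed within it in every group were Hoxb9 and Hoxb13, then Hoxc5, Hoxc8, Hoxc10, Hoxc11 and Hoxc12, and, of HoxD, all but Hoxd12.

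**Figure D1:**
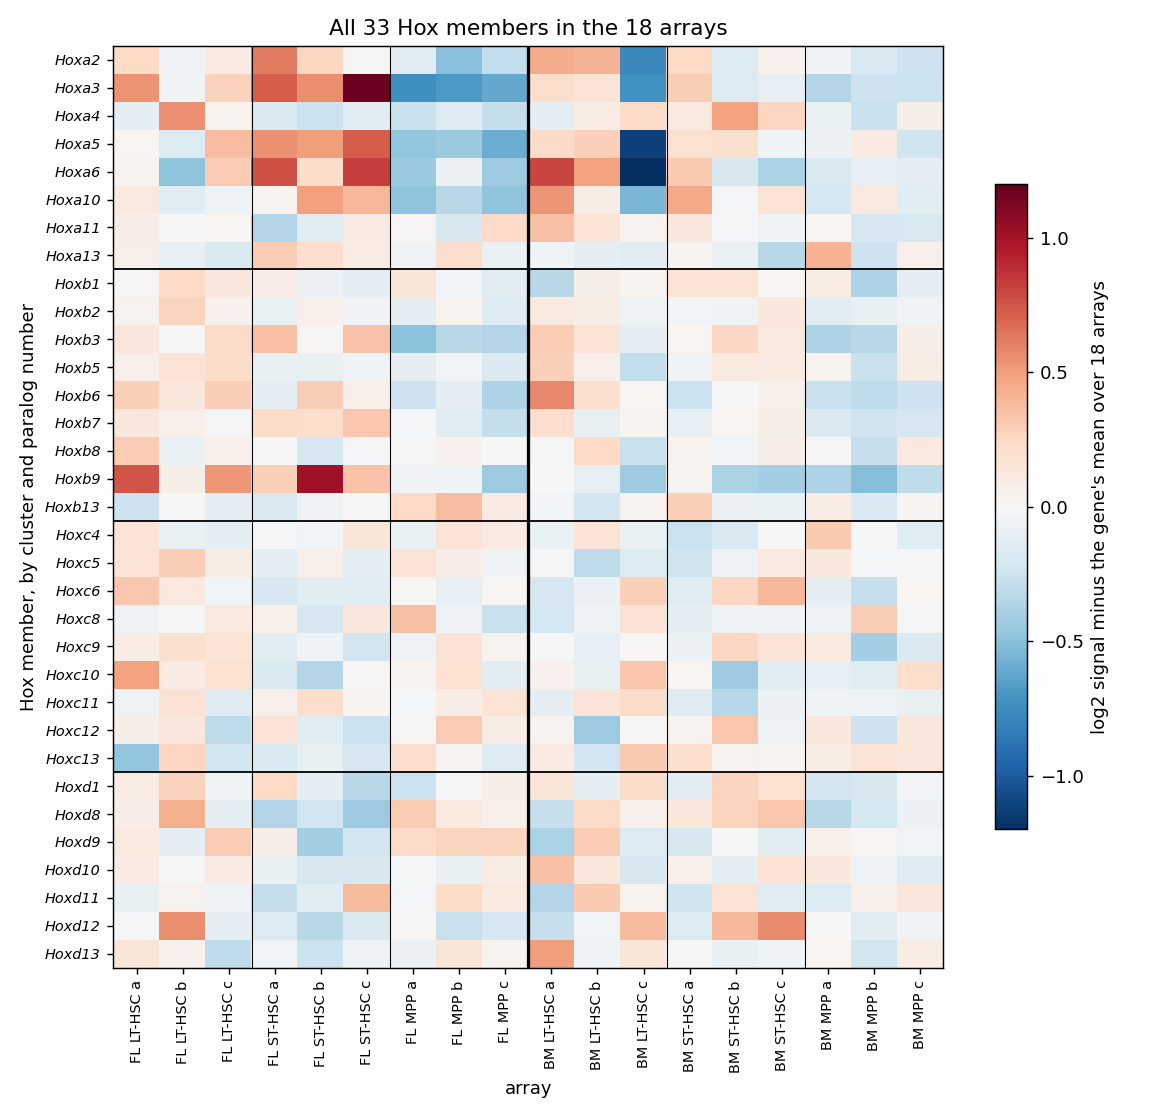
Log2 signal of each of the 33 Hox members (rows, by cluster and paralog number) in each of the 18 arrays (columns, FL groups left of BM groups), drawn as the difference from that gene's mean over all arrays. Hoxa2, Hoxa3, Hoxa5 and Hoxa6 are high in FL ST-HSC and low in FL MPP, and BM LT-HSC c is low in the same genes, with 7.71 for Hoxa6 against 9.86 and 9.54 in arrays a and b.

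By the median range of group means, members of the HoxA cluster varied most between groups. The difference between a gene's highest and lowest group mean had a median of 0.68 on the log2 scale in HoxA, 0.36 in HoxB, 0.29 in HoxC and 0.32 in HoxD. Probe sets are not on a common scale. All 8 HoxA members lay above the receptor range in every group, against 6 of 9 HoxB, 3 of 9 HoxC and 1 of 7 HoxD members. The part of signal level in this order was not tested. Among the 3 FL groups, 6 of 8 HoxA members had their highest mean in ST-HSC and 6 had their lowest in MPP. Among the 3 BM groups, 6 of 8 HoxA and 8 of 9 HoxB members had their lowest mean in MPP. Over the 6 group means, which share the same arrays, the 28 pairs of HoxA members correlated with a median r of 0.38 (from -0.82 to 0.97), and the medians in HoxB, HoxC and HoxD were 0.42, 0.13 and 0.32.

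The question that the sort of the populations poses is how Hox signals differ between stem cells and the multipotent progenitors that follow them. In FL, ST-HSC had higher signals than MPP for Hoxa3, Hoxa5 and Hoxb3, by 2.83-fold, 2.14-fold and 1.55-fold, and no member was lower at the threshold (limma, adjusted p under 0.05 over all genes). These 3 called members are 9.09% of the 33, against 2.26% of all genes called in that comparison and 1.58% called higher. FL LT-HSC also had a higher signal than FL MPP for Hoxa3, by 1.92-fold, which was the only member called there, against 3.40% of all genes. Hoxa3 read 6.98, 7.03 and 7.10 in FL MPP, just above the receptor limit of 6.95, so both of its folds rest on a signal near background. In BM the only call between LT-HSC and MPP was Hoxb6, higher in LT-HSC by 0.54 on the log2 scale with BM MPP within the receptor range, against 4.57% of all genes, and between ST-HSC and MPP no member was called, against 6.10% of all genes. At an unadjusted p under 0.05, 12 members differed between ST-HSC and MPP in FL, 7 between LT-HSC and MPP in FL, 4 between LT-HSC and MPP in BM and 3 between ST-HSC and MPP in BM. No share of all genes is given for this cutoff, here or below, so these counts describe the members only. Without overlap of the 3 arrays a group, 14 members were separated between ST-HSC and MPP in FL, against 26.5% of all genes. Of these, 9 were higher in ST-HSC and 5 lower. By mean alone, 15 of the 33 members were higher in FL ST-HSC than in FL MPP, and 23 were higher in FL LT-HSC than in FL MPP. In BM, 23 were higher in ST-HSC than in MPP and 23 in LT-HSC than in MPP. The median differences of the members in these comparisons were -0.03, 0.13, 0.11 and 0.11. Over all genes the medians were -0.06, -0.01, -0.01 and -0.01 in the same order. Between LT-HSC and MPP in FL, 12 members were separated, 11 higher in LT-HSC and 1 lower, against 24.8% of all genes. In BM, 5 members were so separated between ST-HSC and MPP, against 29.2% of all genes, and 3 between LT-HSC and MPP, against 21.2%, so that groups without overlap are common and are given below as a description.

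Endothelial markers moved with the same comparison. Of 10 such markers all were measured, and their mean log2 signal lay between 8.19 and 8.35 in the FL LT-HSC arrays and between 8.07 and 8.38 in FL ST-HSC, against 7.34 to 7.47 in FL MPP. In BM it lay between 7.62 and 7.97 in LT-HSC and between 7.19 and 7.37 in ST-HSC, against 7.19 to 7.25 in MPP. By group mean, 9 of the 10 exceeded the receptor range in LT-HSC of FL, 8 did in ST-HSC and 7 did in MPP, and in BM the counts were 8, 5 and 6 in the same order. Cdh5, the endothelial cadherin, averaged 8.88 in FL LT-HSC and 8.84 in ST-HSC, against 6.41 in FL MPP, while Stab2, a marker of sinusoids, stayed within the receptor range in every group. Several of these genes, such as Tek and Emcn, are also known from hematopoietic stem cells. Their part in the Hox results was not tested.

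Hoxa3, which patterns the pharyngeal arches and the thymus, gave the largest difference. It read 8.26, 7.68 and 7.99 in FL LT-HSC, 8.44, 8.28 and 8.89 in FL ST-HSC and 6.98, 7.03 and 7.10 in FL MPP. In BM, Hoxa3 read 7.93, 7.87 and 6.99 in BM LT-HSC, 8.01, 7.55 and 7.62 in BM ST-HSC and 7.37, 7.47 and 7.46 in BM MPP. All 3 FL ST-HSC arrays lay above the FL LT-HSC arrays, and these above the FL MPP arrays. In BM, ST-HSC lay above MPP by a narrow margin, and BM LT-HSC c lay at the level of FL MPP. The log2 difference of ST-HSC from MPP in FL was 1.5 (SE 0.22, adjusted p 0.000743), and it stayed called whichever 1 array was omitted (1.33 to 1.63). The difference of LT-HSC from MPP in FL was 0.94 (SE 0.22, adjusted p 0.0203). In BM the same differences were 0.29 for ST-HSC and 0.16 for LT-HSC (SE 0.22 each), neither past the threshold. Without BM LT-HSC c, the lowest of its group, the LT-HSC difference was 0.46 (adjusted p 0.202).

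Hoxa5, a regulator of lung and axial skeleton development, followed the same order in FL. It read 8.71, 8.52 and 9.06 in FL LT-HSC, 9.23, 9.19 and 9.41 in FL ST-HSC and 8.21, 8.24 and 8.09 in FL MPP. In BM, Hoxa5 read 8.92, 8.97 and 7.57 in BM LT-HSC, 8.87, 8.88 and 8.63 in BM ST-HSC and 8.62, 8.78 and 8.45 in BM MPP. The FL ST-HSC, FL LT-HSC and FL MPP arrays formed 3 bands that did not overlap, and in BM the LT-HSC arrays a and b lay just above the ST-HSC arrays while array c was the lowest of all 18. ST-HSC exceeded MPP in FL by 1.09 (SE 0.26, adjusted p 0.0301), against 0.18 in BM (SE 0.26, adjusted p 0.716). Omitting any 1 of the 3 FL ST-HSC or 3 FL MPP arrays ended the call of Hoxa5 (differences of 1.03 to 1.14 over all 18 omissions), and for Hoxb3 the same held except for FL ST-HSC b (0.58 to 0.75).

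Hoxa6 and Hoxa10, which are each known to expand mouse hematopoietic progenitors when overexpressed, and Hoxa2, a hindbrain patterning gene, had the same order without passing the test. Hoxa6 read 9.10, 8.58 and 9.36 in FL LT-HSC, 9.82, 9.28 and 9.89 in FL ST-HSC and 8.61, 8.99 and 8.62 in FL MPP. In BM, Hoxa6 read 9.86, 9.54 and 7.71 in BM LT-HSC, 9.37, 8.87 and 8.68 in BM ST-HSC and 8.88, 8.96 and 8.94 in BM MPP. Every FL ST-HSC array of Hoxa6 lay above every FL MPP array, but the spread of 7.71 to 9.86 in BM LT-HSC gave this gene a standard error of 0.38, against a median of 0.15 over the members. Its difference of ST-HSC from MPP in FL was 0.92 (adjusted p 0.283).

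Hoxa10 read 8.80, 8.54 and 8.62 in FL LT-HSC, 8.72, 9.17 and 9.08 in FL ST-HSC and 8.20, 8.35 and 8.20 in FL MPP. In BM, Hoxa10 read 9.21, 8.77 and 8.13 in BM LT-HSC, 9.13, 8.66 and 8.84 in BM ST-HSC and 8.47, 8.80 and 8.54 in BM MPP. Again the FL MPP arrays were the lowest FL arrays without overlap, and the difference of ST-HSC from MPP in FL was 0.74 (SE 0.21, adjusted p 0.0799). Hoxa2 read 8.31, 8.03 and 8.17 in FL LT-HSC, 8.70, 8.32 and 8.09 in FL ST-HSC and 7.95, 7.57 and 7.78 in FL MPP. In BM, Hoxa2 read 8.52, 8.48 and 7.30 in BM LT-HSC, 8.31, 7.91 and 8.12 in BM ST-HSC and 8.03, 7.89 and 7.82 in BM MPP. Its FL MPP arrays lay below those of FL LT-HSC and FL ST-HSC, and BM LT-HSC c lay below every other array. The difference of ST-HSC from MPP in FL was 0.61 (SE 0.25, adjusted p 0.275).

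**Figure D2:**
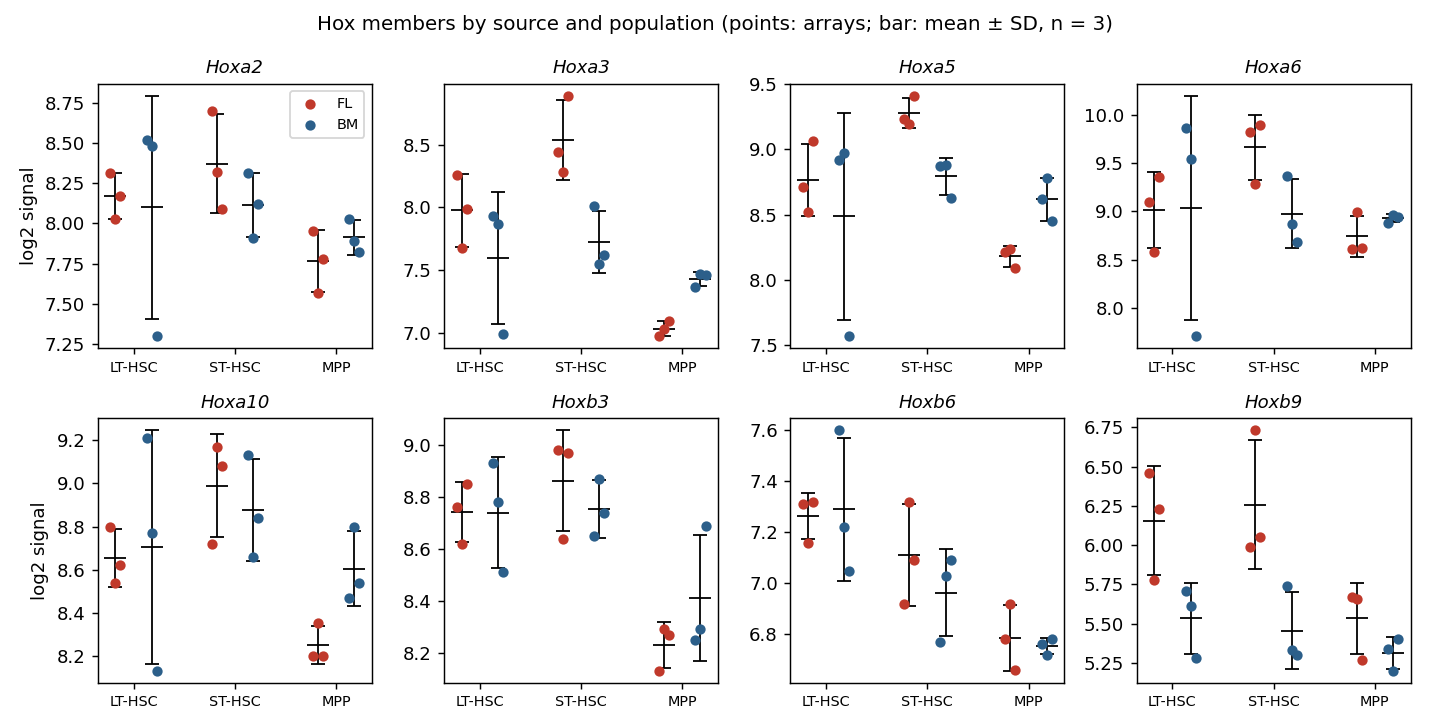
Log2 signal of 8 Hox members by population (x axis), FL arrays in red left of BM arrays in blue, with the mean and SD of each group of 3. For Hoxa3 the 3 FL ST-HSC arrays lie between 8.28 and 8.89 and the 3 FL MPP arrays between 6.98 and 7.10, and BM LT-HSC c is the low BM LT-HSC point of Hoxa2, Hoxa3, Hoxa5, Hoxa6 and Hoxa10.

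The array BM LT-HSC c bears on all of these values, because every group shares the spread of a gene in the fit. It was the lowest of its group in 7 of 8 HoxA, 6 of 9 HoxB, 0 of 9 HoxC and 1 of 7 HoxD members, and the lowest of all 18 arrays in 4 HoxA members (Hoxa2, Hoxa5, Hoxa6 and Hoxa10) and in Hoxb5. Without it, 8 members were called higher in ST-HSC than in MPP in FL: Hoxa2, Hoxa3, Hoxa5, Hoxa6, Hoxa10, Hoxb3, Hoxb7 and Hoxb9. The log2 differences were the same as with it, and adjusted p ranged from 1.94e-05 for Hoxa3 to 0.0482 for Hoxb9. Over all genes, 862 were called in this comparison without BM LT-HSC c, against 441 with it. Between LT-HSC and MPP in FL, 4 members were then called, Hoxa3, Hoxa5, Hoxb3 and Hoxb6. Over all genes, 1115 were called there without BM LT-HSC c, against 664 with it. Between LT-HSC and MPP in BM the call was still Hoxb6 alone (0.66, adjusted p 0.0116), but without this array the differences of Hoxa2, Hoxa3, Hoxa5, Hoxa6 and Hoxa10 there were 0.59, 0.46, 0.33, 0.78 and 0.39, against 0.19, 0.16, -0.13, 0.11 and 0.10 with it, none past the threshold in either fit. Leaving out each of FL LT-HSC a, FL LT-HSC c and the 3 FL MPP arrays in turn left 0 members called between LT-HSC and MPP in FL, and leaving out each of FL ST-HSC a, FL ST-HSC c and the 3 FL MPP arrays left Hoxa3 as the only member called between ST-HSC and MPP in FL. When the 4 sgEzh2-described arrays were left out, only FL MPP c remained of its group, no member was called in either comparison and the Hoxa3 difference of ST-HSC from MPP in FL was 1.48 (adjusted p 0.183).

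Hoxa4, Hoxa11 and Hoxa13 did not share this order. Hoxa4 read 8.06, 8.72 and 8.21 in FL LT-HSC, 8.0, 7.91 and 8.04 in FL ST-HSC and 7.90, 8.01 and 7.88 in FL MPP. In BM, Hoxa4 read 8.05, 8.26 and 8.40 in BM LT-HSC, 8.29, 8.65 and 8.43 in BM ST-HSC and 8.09, 7.90 and 8.24 in BM MPP. The FL LT-HSC arrays of Hoxa4 were above those of FL ST-HSC and FL MPP, led by array b, and BM ST-HSC had the highest mean. The 4 highest arrays of Hoxa4 were the 4 of narrow interquartile range. Hoxa11, a limb and uterus gene, read 7.37, 7.29 and 7.32 in FL LT-HSC, 6.94, 7.15 and 7.40 in FL ST-HSC and 7.31, 7.10 and 7.52 in FL MPP. In BM, Hoxa11 read 7.65, 7.45 and 7.34 in BM LT-HSC, 7.42, 7.27 and 7.25 in BM ST-HSC and 7.32, 7.09 and 7.11 in BM MPP. Its BM LT-HSC arrays lay above its BM MPP arrays by a narrow margin, and the FL groups overlapped. Hoxa13, a gene of the digits and the genital tract, read 7.69, 7.53 and 7.46 in FL LT-HSC, 7.93, 7.83 and 7.72 in FL ST-HSC and 7.59, 7.84 and 7.55 in FL MPP. In BM, Hoxa13 read 7.58, 7.51 and 7.50 in BM LT-HSC, 7.66, 7.55 and 7.30 in BM ST-HSC and 8.05, 7.38 and 7.69 in BM MPP. Its highest array was BM MPP a, and no comparison called it. The RefSeq span of Hoxa3 contains those of Hoxa4, Hoxa5 and Hoxa6, so signals of these genes may share transcripts, which the probe sets listed do not resolve.

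In the HoxB cluster, Hoxb3, a gene of anterior body patterning that is active in blood progenitors, was called between stem cells and MPP. It read 8.76, 8.62 and 8.85 in FL LT-HSC, 8.98, 8.64 and 8.97 in FL ST-HSC and 8.13, 8.29 and 8.27 in FL MPP. In BM, Hoxb3 read 8.93, 8.78 and 8.51 in BM LT-HSC, 8.65, 8.87 and 8.74 in BM ST-HSC and 8.25, 8.29 and 8.69 in BM MPP. The FL MPP arrays lay below both FL stem cell groups, and in BM array c of MPP overlapped with them. The difference of ST-HSC from MPP in FL was 0.63 (SE 0.15, adjusted p 0.0257). Averaged over FL and BM, Hoxb3 was higher than in MPP by 0.42 in LT-HSC (SE 0.10, adjusted p 0.0148) and by 0.49 in ST-HSC (SE 0.10, adjusted p 0.00665), calls that held in each of the 18 fits without 1 array.

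These averages over both sources were added after the data had been seen. LT-HSC was higher than MPP in 3 members, Hoxa3 (0.55), Hoxb3 (0.42) and Hoxb6 (0.51), and lower in 0. The called members were 9.09% of the 33, against 8.87% of all genes called in either direction and 3.73% called higher. ST-HSC was higher than MPP in 5 members, Hoxa3 (0.90), Hoxa5 (0.64), Hoxa10 (0.50), Hoxb3 (0.49) and Hoxb7 (0.31), and lower in 0. These were 15.2% of the 33, against 8.78% of all genes called in either direction and 2.91% called higher. Without BM LT-HSC c, 8 members were called in LT-HSC against MPP (Hoxa2, Hoxa3, Hoxa5, Hoxa6, Hoxa10, Hoxb3, Hoxb6 and Hoxb9). Over all genes, 2046 were called there, against 1730 with all arrays. In ST-HSC against MPP, 7 members were called without that array, Hoxa2, Hoxa3, Hoxa5, Hoxa6, Hoxa10, Hoxb3 and Hoxb7. For that fit no count over all genes is given here. In LT-HSC against MPP, the call of Hoxa3 was lost in 10 of the 18 fits without 1 array, namely without FL LT-HSC a or c, BM LT-HSC a or b, or any of the 6 MPP arrays. Of the 5 members called in ST-HSC, Hoxa3 and Hoxb3 stayed called in all 18. Leaving out FL ST-HSC c, FL MPP c, BM ST-HSC c or BM MPP b reduced the calls to these 2, and leaving out FL ST-HSC b, FL MPP a, FL MPP b, BM ST-HSC b, BM MPP a or BM MPP c reduced them to 3.

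Hoxb6, a gene linked to myeloid and erythroid progenitors, was the member called between LT-HSC and MPP of BM. It read 7.31, 7.16 and 7.32 in FL LT-HSC, 6.92, 7.32 and 7.09 in FL ST-HSC and 6.78, 6.92 and 6.66 in FL MPP. In BM, Hoxb6 read 7.60, 7.22 and 7.05 in BM LT-HSC, 6.77, 7.03 and 7.09 in BM ST-HSC and 6.76, 6.72 and 6.78 in BM MPP. LT-HSC lay above MPP in both sources without overlap. The mean of FL MPP, 6.79, and that of BM MPP, 6.75, lay within the receptor range, so that no fold is given. The difference in BM was 0.54 (SE 0.15, adjusted p 0.044) and that in FL 0.48 (SE 0.15, adjusted p 0.0949), and the average was 0.51 (SE 0.10, adjusted p 0.0041). The call in BM alone was lost in 13 of the 18 fits that left out 1 array, whereas the call of the average was kept in each.

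Hoxb7 read 9.15, 9.09 and 9.01 in FL LT-HSC, 9.26, 9.24 and 9.35 in FL ST-HSC and 9.0, 8.88 and 8.74 in FL MPP. In BM, Hoxb7 read 9.23, 8.94 and 9.06 in BM LT-HSC, 8.93, 9.05 and 9.10 in BM ST-HSC and 8.85, 8.79 and 8.83 in BM MPP. MPP was the lowest population in both sources, with no overlap between ST-HSC and MPP, and the averaged difference of ST-HSC from MPP was 0.31 (SE 0.08, adjusted p 0.0217). Hoxb5, whose reporter marks long-term stem cells in adult mouse bone marrow, read 8.47, 8.57 and 8.63 in FL LT-HSC, 8.32, 8.32 and 8.36 in FL ST-HSC and 8.30, 8.37 and 8.23 in FL MPP. In BM, Hoxb5 read 8.69, 8.47 and 8.11 in BM LT-HSC, 8.36, 8.51 and 8.51 in BM ST-HSC and 8.45, 8.14 and 8.49 in BM MPP. FL LT-HSC lay above the other FL groups by a margin that did not pass the test (0.26 against MPP, SE 0.14), and in BM the LT-HSC arrays spanned the values of the other groups, with array c lowest.

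The anterior genes Hoxb1 and Hoxb2, which pattern the hindbrain, had no call in any comparison. Hoxb1 read 7.24, 7.46 and 7.35 in FL LT-HSC, 7.30, 7.15 and 7.11 in FL ST-HSC and 7.37, 7.19 and 7.10 in FL MPP. In BM, Hoxb1 read 6.89, 7.29 and 7.26 in BM LT-HSC, 7.39, 7.39 and 7.25 in BM ST-HSC and 7.31, 6.85 and 7.12 in BM MPP. The ranges of its groups overlapped in each source. Hoxb2 read 8.89, 9.12 and 8.90 in FL LT-HSC, 8.77, 8.91 and 8.81 in FL ST-HSC and 8.73, 8.89 and 8.70 in FL MPP. In BM, Hoxb2 read 8.97, 8.94 and 8.79 in BM LT-HSC, 8.82, 8.81 and 8.98 in BM ST-HSC and 8.71, 8.76 and 8.81 in BM MPP. Its group means spanned 0.20 on the log2 scale. Hoxb8, which blocks the maturation of myeloid progenitors when overexpressed, read 8.01, 7.63 and 7.77 in FL LT-HSC, 7.71, 7.51 and 7.69 in FL ST-HSC and 7.70, 7.76 and 7.71 in FL MPP. In BM, Hoxb8 read 7.69, 7.95 and 7.44 in BM LT-HSC, 7.75, 7.67 and 7.79 in BM ST-HSC and 7.70, 7.43 and 7.82 in BM MPP. Its group means spanned 0.17, and FL LT-HSC a was its highest array.

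**Figure D3:**
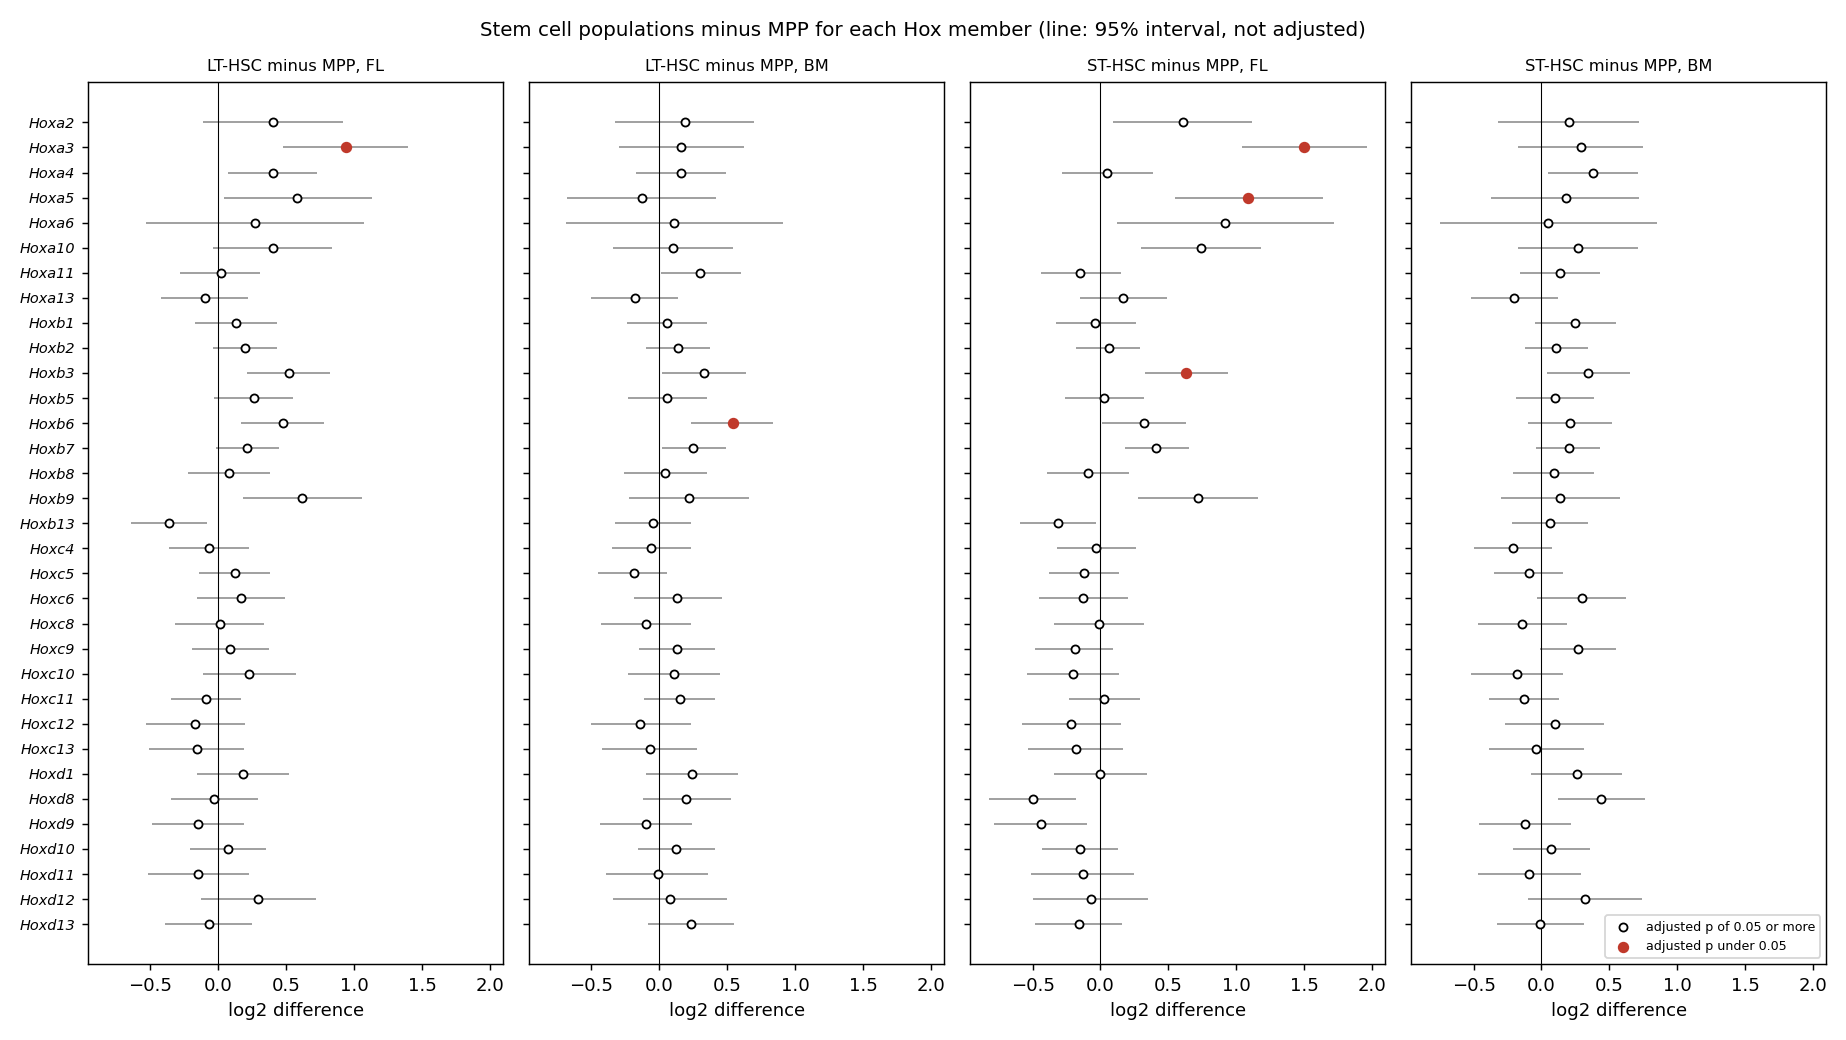
Log2 difference of LT-HSC or ST-HSC from MPP (x axis) for each Hox member (rows), in FL and in BM, with the 95% interval of the limma fit, not adjusted, and filled points where the adjusted p was under 0.05. Hoxa3 in ST-HSC of FL lies farthest to the right at 1.5, and the BM intervals of most members hold 0.

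No member was called between LT-HSC and ST-HSC. In FL 0 members were called by limma, against 0.559% of all genes, and 5 had an unadjusted p under 0.05. In BM 0 were called, against 1.71% of all genes, and 2 had an unadjusted p under 0.05. Averaged over both sources, 0 were called, against 1.54% of all genes, and 4 had an unadjusted p under 0.05. Groups without overlap numbered 13 of the 33 members in FL, against 15.5% of all genes, and 0 in BM, against 12.1%. Of the 13 in FL, 4 were lower in LT-HSC than in ST-HSC and 9 higher, at most by 0.47, for Hoxd8 within the receptor range. The largest member differences in FL were -0.65 for Hoxa6 (SE 0.38) and -0.56 for Hoxa3 (SE 0.22), lower in LT-HSC than in ST-HSC. The difference of Hoxa3 had an interval of -1.02 to -0.10.

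The second question of the design is whether cells of the fetal liver and the adult bone marrow differ. For Hox genes the answer of the averaged comparison was 1 called member of 33, or 3.03%, against 25.1% of all genes. The median difference of FL from BM was 0.03 over the members and 0.01 over all genes. The 95% interval of the averaged difference lay within 1 log2 unit of 0 for all 33 members and within 0.5 for 30. By population it lay within 0.5 for fewer members, 21 in LT-HSC, 16 in ST-HSC and 22 in MPP, and within 1 for 32, 29 and 33. The average also merges opposite differences, such as those of Hoxa3, 0.81 in ST-HSC and -0.40 in MPP. In LT-HSC alone 0 members were called, against 7.66% of all genes, with 2 at an unadjusted p under 0.05. In MPP alone 0 members were called, against 5.47% of all genes, with 1 at an unadjusted p under 0.05. Without overlap of their arrays, FL and BM were separated for 3 members in LT-HSC, 9 in ST-HSC and 7 in MPP, against 19.0%, 34.8% and 32.9% of all genes. In ST-HSC 4 members were called, or 12.1%, against 18.7% of all genes: Hoxa3 and Hoxb9 were higher in FL, and Hoxa4 and Hoxd8 were lower.

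The single member called in the average was Hoxb9. Its signal stayed within the receptor range in every group, so no fold is given, and the differences below are those of the fit between signals at background level. It read 6.46, 5.78 and 6.23 in FL LT-HSC, 5.99, 6.73 and 6.05 in FL ST-HSC and 5.67, 5.66 and 5.27 in FL MPP. In BM, Hoxb9 read 5.71, 5.61 and 5.28 in BM LT-HSC, 5.74, 5.33 and 5.30 in BM ST-HSC and 5.34, 5.20 and 5.40 in BM MPP. FL lay above BM without overlap in LT-HSC and in ST-HSC, and the MPP groups overlapped. The averaged difference was 0.55 (SE 0.12, adjusted p 0.00243), called in all 18 fits without 1 array (0.47 to 0.61) but not without the sgEzh2-described arrays (0.45, adjusted p 0.0549). Without FL LT-HSC b, 3 members were called in the average, Hoxa4, Hoxb9 and Hoxc13. The differences were 0.62 in LT-HSC (adjusted p 0.0818), 0.80 in ST-HSC (adjusted p 0.0143) and 0.22 in MPP (adjusted p 0.718).

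In ST-HSC, Hoxa3 was 1.76-fold higher in FL than in BM (log2 difference 0.81, SE 0.22, adjusted p 0.0173), and all 3 FL arrays lay above the 3 BM arrays. Hoxa4 was lower in FL ST-HSC by 0.47 on the log2 scale (fold 0.720, adjusted p 0.0455), with arrays of 7.91 to 8.04 in FL and 8.29 to 8.65 in BM. Hoxd8, within the receptor range, differed by -0.58 (SE 0.15, adjusted p 0.0149). The calls of this comparison depended on single arrays: 0 members were called without BM ST-HSC b, 0 without BM ST-HSC c, 1 without FL ST-HSC c (Hoxb9) and 2 without FL ST-HSC b (Hoxa3 and Hoxd8), while 6 were called without BM ST-HSC a and 6 without BM LT-HSC c. Over all genes, calls fell from 3638 to 1587 without BM ST-HSC b and to 1462 without BM ST-HSC c. They fell to 2719 without FL ST-HSC c and to 1725 without FL ST-HSC b. For the fits with 6 called, no count over all genes is given here. The call of Hoxa4 was lost in 12 of the 18 fits without 1 array. Without all 4 arrays of narrow interquartile range, which leaves 1 BM ST-HSC array, 0 members were called, and the Hoxa3 difference was 0.53 (adjusted p 0.133). The neutrophil and B cell markers that are higher in BM arrays move with source as well, and their part in these differences was not tested.

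**Figure D4:**
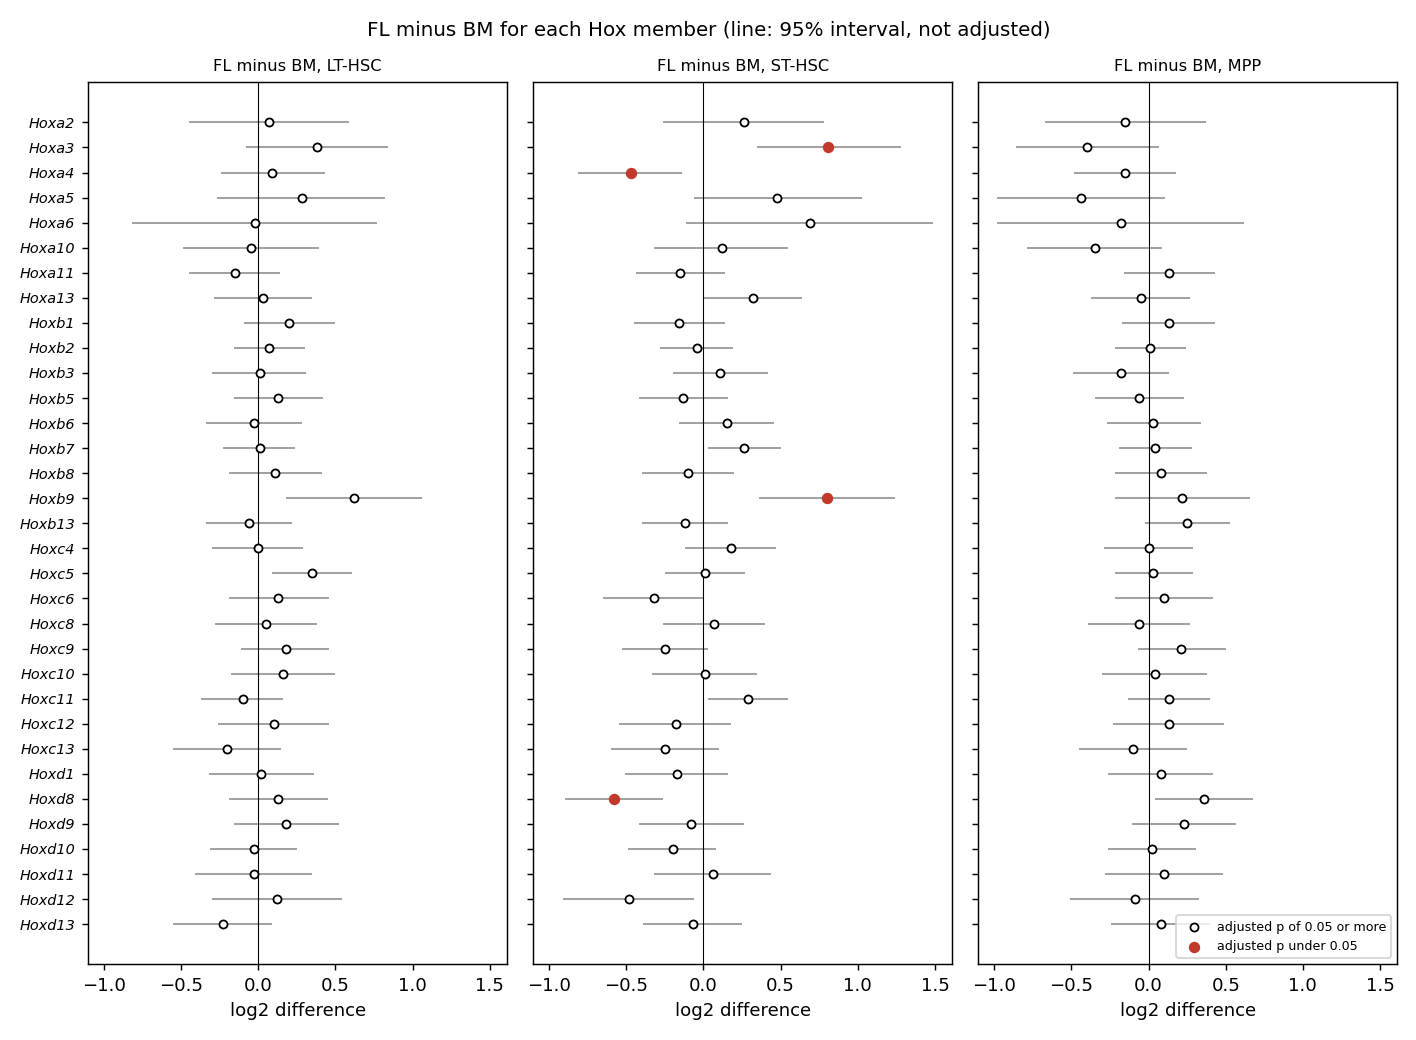
Log2 difference of FL from BM (x axis) for each Hox member (rows) in LT-HSC, ST-HSC and MPP, with the 95% interval of the limma fit, not adjusted, and filled points where the adjusted p was under 0.05. Calls appear in ST-HSC only, for Hoxa3 (0.81), Hoxa4 (-0.47), Hoxb9 (0.80) and Hoxd8 (-0.58).

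Most HoxC and HoxD members, which pattern the trunk, limbs and posterior body, had low signals and no call. Hoxc4 read 7.53, 7.28 and 7.26 in FL LT-HSC, 7.34, 7.33 and 7.51 in FL ST-HSC and 7.28, 7.52 and 7.47 in FL MPP. In BM, Hoxc4 read 7.28, 7.53 and 7.28 in BM LT-HSC, 7.11, 7.18 and 7.37 in BM ST-HSC and 7.68, 7.37 and 7.22 in BM MPP. Its groups overlapped in each source. Hoxc6 read 7.52, 7.32 and 7.17 in FL LT-HSC, 7.01, 7.06 and 7.06 in FL ST-HSC and 7.21, 7.10 and 7.21 in FL MPP. In BM, Hoxc6 read 7.0, 7.13 and 7.49 in BM LT-HSC, 7.05, 7.45 and 7.60 in BM ST-HSC and 7.08, 6.92 and 7.22 in BM MPP. In FL its ST-HSC arrays were the lowest, and in BM its ST-HSC arrays b and c and LT-HSC array c were high, 3 of the 4 arrays with a narrow interquartile range.

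Hoxc9 read 8.29, 8.39 and 8.37 in FL LT-HSC, 8.08, 8.15 and 7.97 in FL ST-HSC and 8.16, 8.38 and 8.24 in FL MPP. In BM, Hoxc9 read 8.20, 8.10 and 8.22 in BM LT-HSC, 8.13, 8.45 and 8.37 in BM ST-HSC and 8.32, 7.79 and 8.03 in BM MPP. Its FL ST-HSC arrays lay below those of FL LT-HSC and FL MPP without overlap. Hoxc13, a hair and nail gene, read 6.40, 7.13 and 6.65 in FL LT-HSC, 6.69, 6.78 and 6.67 in FL ST-HSC and 7.07, 6.90 and 6.72 in FL MPP. In BM, Hoxc13 read 6.97, 6.64 and 7.18 in BM LT-HSC, 7.07, 6.91 and 6.90 in BM ST-HSC and 6.96, 7.03 and 7.0 in BM MPP. Its lowest array was FL LT-HSC a, beside FL LT-HSC b among the highest. Hoxd12 read 7.17, 7.74 and 7.08 in FL LT-HSC, 7.02, 6.85 and 7.01 in FL ST-HSC and 7.20, 6.92 and 6.98 in FL MPP. In BM, Hoxd12 read 6.91, 7.15 and 7.56 in BM LT-HSC, 7.02, 7.57 and 7.75 in BM ST-HSC and 7.19, 7.05 and 7.14 in BM MPP. Its 4 highest arrays were FL LT-HSC b, BM LT-HSC c, BM ST-HSC b and BM ST-HSC c, the 4 of narrow interquartile range.

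Hoxd8 was the exception in HoxD, with a call in ST-HSC at signals within the receptor range. It read 6.47, 6.82 and 6.28 in FL LT-HSC, 6.04, 6.16 and 5.95 in FL ST-HSC and 6.69, 6.51 and 6.45 in FL MPP. In BM, Hoxd8 read 6.11, 6.62 and 6.45 in BM LT-HSC, 6.52, 6.66 and 6.71 in BM ST-HSC and 6.06, 6.18 and 6.32 in BM MPP. FL ST-HSC lay below BM ST-HSC without overlap, and FL MPP lay above BM MPP without overlap. The other 11 members had no call and stayed within the receptor range. They are Hoxb13, Hoxc5, Hoxc8, Hoxc10, Hoxc11, Hoxc12, Hoxd1, Hoxd9, Hoxd10, Hoxd11 and Hoxd13, with group means that spanned 0.14 for Hoxc8 to 0.44 for Hoxc10 and Hoxd9. The RefSeq spans of Hoxd10 and Hoxd11 overlap.

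Whether the difference between stem cells and MPP itself depends on the source was tested as an interaction. For LT-HSC against MPP 0 members were called, against 0.543% of all genes, and 1, Hoxa3, had an unadjusted p under 0.05 (0.78, adjusted p 0.536, against 0.47 and adjusted p 0.607 without BM LT-HSC c). For ST-HSC against MPP, a contrast added after the data had been seen, 0 were called, against 0.185% of all genes, and 4 had an unadjusted p under 0.05. The interaction was largest in size for Hoxa3, where ST-HSC exceeded MPP by 1.21 more in FL than in BM (SE 0.31, adjusted p 0.129), for Hoxd8 (-0.94, SE 0.22, adjusted p 0.0825) and for Hoxa5 (0.92, SE 0.37, adjusted p 0.317). Without BM LT-HSC c, which is no array of these 4 groups but adds to the pooled spread, all 3 were called (adjusted p 0.0164 for Hoxa3, 0.0376 for Hoxd8 and 0.0285 for Hoxa5), and without BM ST-HSC a, Hoxa3 and Hoxd8 were. Over all genes, 239 were called without BM LT-HSC c and 384 without BM ST-HSC a, against 36 with all arrays. Without the 4 arrays of narrow interquartile range no member was called, with adjusted p of 0.136 for Hoxa3, 0.192 for Hoxd8 and 0.121 for Hoxa5. 

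Partners of Hox proteins on DNA included genes that differed between FL and BM. Of 8 measured Meis, Pbx and Pknox genes, which encode the TALE homeodomain cofactors, 3 rose and 2 fell in FL relative to BM, beside 25.1% of all genes called, with a median difference of 0.13, against 0.01 over all genes. Under other settings 0 to 3 of them rose and 0 to 2 fell, and without BM LT-HSC c 3 rose and 2 fell. Pbx2 read 11.02, 10.70 and 10.89 in FL LT-HSC, 11.20, 10.95 and 11.13 in FL ST-HSC and 10.88, 10.92 and 11.03 in FL MPP. In BM, Pbx2 read 10.16, 10.32 and 9.62 in BM LT-HSC, 10.18, 9.61 and 9.77 in BM ST-HSC and 9.88, 10.12 and 10.10 in BM MPP. All 9 FL arrays of Pbx2 lay above all 9 BM arrays, and the averaged difference was 0.99 (SE 0.10). Meis2 rose by 0.73 (SE 0.13) and Pbx3 by 0.60 (SE 0.15), and Pbx4 fell by 0.57 (SE 0.09). Meis1, the best known partner of Hox proteins in stem cells and leukemia, also fell, by 0.40 (SE 0.14, adjusted p 0.041), and by 0.55 without BM LT-HSC c (adjusted p 4.07e-05). The means of Meis2 were 8.10, 7.86 and 6.69 in FL LT-HSC, FL ST-HSC and FL MPP, against 7.11, 6.76 and 6.60 in BM. Those of FL MPP, BM ST-HSC and BM MPP lay within the receptor range, so its averaged difference is no measure of fold.

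Meis1 read 10.62, 10.71 and 10.98 in FL LT-HSC, 10.69, 10.41 and 10.90 in FL ST-HSC and 9.83, 9.70 and 9.81 in FL MPP. In BM, Meis1 read 11.24, 11.26 and 9.98 in BM LT-HSC, 11.18, 11.01 and 11.10 in BM ST-HSC and 10.43, 10.54 and 10.53 in BM MPP. BM LT-HSC c was again far below arrays a and b, and the FL MPP arrays were below all other arrays. LT-HSC exceeded MPP in FL by 0.99 for Meis1 (SE 0.24, adjusted p 0.0255) and by 1.41 for Meis2 (SE 0.22), and ST-HSC exceeded MPP in FL by 1.16 for Meis2 (SE 0.22, adjusted p 0.00599). The mean of Meis2 in FL MPP, 6.69, lay within the receptor range, so these differences are no measure of fold. In BM no TALE gene was called between LT-HSC and MPP or between ST-HSC and MPP with all arrays. Without BM LT-HSC c, Meis1 was called higher than in BM MPP in LT-HSC (0.75, adjusted p 0.00303, against 0.32 and adjusted p 0.559 with it) and in ST-HSC (0.60, adjusted p 0.00747, against 0.149 with it), and Pknox1 was called lower in ST-HSC (-0.53, adjusted p 0.035). Over the alternative settings 0 to 1 TALE genes rose and 0 fell between LT-HSC and MPP in BM, and 0 to 1 rose and 0 to 2 fell between ST-HSC and MPP. Meis2 read 8.08, 7.96 and 8.27 in FL LT-HSC, 7.48, 8.28 and 7.81 in FL ST-HSC and 6.74, 6.69 and 6.65 in FL MPP. In BM, Meis2 read 7.62, 6.60 and 7.12 in BM LT-HSC, 6.57, 6.83 and 6.89 in BM ST-HSC and 6.81, 6.43 and 6.56 in BM MPP. Its FL stem cell arrays lay above its FL MPP arrays, and in BM array a of LT-HSC, at 7.62, lay within the range of FL ST-HSC.

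Among genes of the MLL and Dot1l machinery, which keeps Hox genes active, 5 of 18 measured rose and 1 fell in FL relative to BM, against 25.1% of all genes, with a median of 0.10. Other settings gave 0 to 6 that rose and 0 to 2 that fell, and without BM LT-HSC c 4 rose and 1 fell. Men1, the MLL partner menin, rose by 0.39 (0.27 without BM LT-HSC c), Psip1 by 0.35 and Dpy30 by 0.34, and Aff1 fell by 0.35. Between populations Mllt3 (AF9), a maintenance factor of human hematopoietic stem cells, stood out. It read 9.38, 9.43 and 9.51 in FL LT-HSC, 8.98, 9.43 and 9.29 in FL ST-HSC and 7.42, 7.27 and 7.36 in FL MPP. In BM, Mllt3 read 9.14, 9.19 and 8.56 in BM LT-HSC, 9.06, 8.85 and 8.79 in BM ST-HSC and 7.45, 8.04 and 7.11 in BM MPP. LT-HSC exceeded MPP by 2.09 in FL and 1.43 in BM (SE 0.20 each), and ST-HSC exceeded MPP by 1.89 in FL and 1.37 in BM (SE 0.20 each), all past the threshold and without overlap.

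Of 31 measured Polycomb genes, which keep Hox genes silent, 4 rose and 4 fell in FL relative to BM, against 25.1% of all genes, with a median of 0.14. The alternatives ranged from 0 to 13 that rose and from 0 to 5 that fell, and without BM LT-HSC c 3 rose and 5 fell. Pcgf3 rose by 0.79, with BM LT-HSC c lowest at 7.07 (0.62 without this array), Cbx2 rose by 0.46, Ezh1 fell by 0.59 and Phc3 by 0.42. Ezh1, the paralog of Ezh2 that can serve as the catalytic subunit in its place, read 10.05, 9.52 and 10.12 in FL LT-HSC, 9.96, 10.08 and 10.49 in FL ST-HSC and 9.93, 9.67 and 9.95 in FL MPP. In BM, Ezh1 read 10.50, 10.52 and 10.42 in BM LT-HSC, 10.75, 10.93 and 10.75 in BM ST-HSC and 10.33, 10.45 and 10.44 in BM MPP. FL lay below BM without overlap within LT-HSC, ST-HSC and MPP. Between populations, Ezh2 fell in BM ST-HSC relative to BM MPP by 0.44 (SE 0.11, adjusted p 0.0297), which was the 1 Polycomb call of that comparison with all arrays. Without BM LT-HSC c, 1 Polycomb gene rose and 4 fell there, Ezh2 among them (0.44, adjusted p 0.0191).

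**Figure D5:**
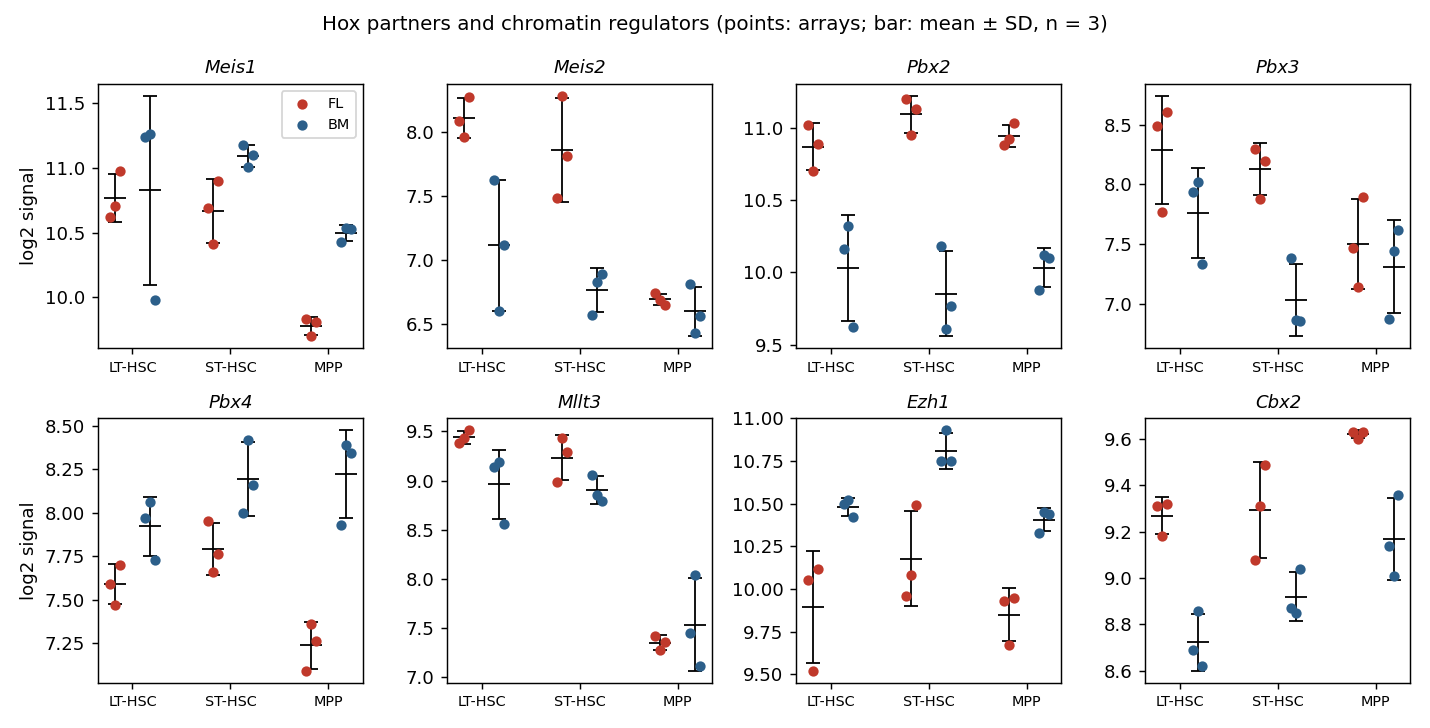
Log2 signal of 5 TALE cofactors, Mllt3 and the Polycomb genes Ezh1 and Cbx2 by population (x axis), FL arrays in red left of BM arrays in blue, with the mean and SD of each group of 3. All FL arrays of Pbx2 lie above all BM arrays, with a mean difference of 0.99, and Mllt3 is lowest in MPP of both sources.

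Caudal-type Cdx and Evx genes, of which Cdx genes activate Hox clusters in the embryo, gave 1 call in 5, against 25.1% of all genes: Cdx2 was higher in FL than in BM by 0.28, with every group mean within the receptor range (5.87 to 6.37). Over the alternative settings 0 to 1 of these genes rose and 0 fell. Of 20 measured genes that flank the 4 clusters, 6 rose and 3 fell, against 25.1% of all genes, with a median of -0.04. Over the alternative settings 0 to 6 rose and 0 to 4 fell, and without BM LT-HSC c 6 rose and 4 fell. Cbx5 rose by 0.64, Mtx2 by 0.50, Cbx1 by 0.44 and Atp5g3 by 0.38. Of 19 listed microRNA and antisense genes of the clusters, 2 were measured, and in the averaged comparison neither was called. Hoxd3os1, whose group means of 4.10 to 4.54 lay within the receptor range, was called in ST-HSC with a difference of -0.44 between signals at background level, and Hoxa11os had no call. Of 13 genes known as targets of Meis1 and Hox proteins in leukemia models, 0 rose and 6 fell in FL relative to BM, against 25.1% of all genes, with a median of -0.19. Over the alternative settings 0 rose and 3 to 7 fell, and without BM LT-HSC c 0 rose and 6 fell. Bcl2, a survival factor, fell by 1.41, Trib2 by 1.28, Pim1 by 1.11 and Lmo2 by 0.64. The FL group means of Trib2, 6.53, 6.42 and 6.47, lay within the receptor range, so its difference is no measure of fold. These genes answer to many other factors as well. Of 18 other homeobox genes of blood cells, 3 rose and 3 fell, against 25.1% of all genes, with a median of 0.11. Over the alternative settings 0 to 6 rose and 0 to 4 fell, and without BM LT-HSC c 4 rose and 4 fell. Satb1 rose by 0.70 and Zfhx3 by 0.58, and Cux1 fell by 0.94 and Nkx2-3, with FL MPP within the receptor range at 6.71, by 0.65.

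For the 2 members whose group means spanned more than 1 log2 unit, the 5 genes closest in pattern over the 6 group means were found by Pearson correlation. For Hoxa3 they were Ubqlnl, Armc2, Eps8l2, Hoxa2 and Micu3, with r from 0.97 to 0.98. For Hoxa5 they were Pam16, Tmem67, Slc30a4, Syn3 and Zfp966, with r from 0.97 to 0.99. With 6 points and 19505 genes, high values are easily reached, and these names describe likeness only.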

How the data were processed

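RNA from the sorted populations was hybridised to 18 Clariom S arrays, grouped by title into 6 groups of 3. The authors deposited a log2 signal for each probe set on each array, and the submitters' processing notes name R 3.5.01 and oligo. How background, normalization and summarization were handled is not stated in the sources used here.

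Of 22203 probe sets, 19572 carried 1 symbol in the platform annotation, and each matched a RefSeq gene of GRCm38.p6 by Entrez ID. The other 2631 were left out. For a symbol with several probe sets the brightest was used, which set 67 aside and left 19505 genes. A model with 1 mean per group was fitted to all 18 arrays (R 4.3.3, limma 3.58.1, eBayes, 12 residual degrees of freedom before moderation). Calls are 2-sided, at an adjusted p under 0.05 by Benjamini-Hochberg across the 19505 genes, in 11 comparisons and 4 added after seeing the data. Errors are standard errors of this fit, or SD for means. The script was tested on simulated data. The number of arrays limits the precision.

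Every Hox member called or above the receptor range is given array by array, the rest by range. Of other lists, up to 4 members with the largest difference are named, and any further gene named was chosen after its values were seen. The members and lists were chosen with earlier results of these data known. Alternatives left out each array, changed the scaling, the filter, the probe set rule, the weights, the moderation, the arrays fitted and the threshold, added a replicate block, or left out the sgEzh2-described or the narrow arrays.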

Additional observations from a re-analysis of the deposited data

Results flagged for a closer look

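Hoxa3, Hoxa5 and Hoxd8 differed between FL and BM in opposite directions in ST-HSC and in MPP, with all 3 FL arrays on one side of all 3 BM arrays in ST-HSC and on the opposite side in MPP. Groups without overlap are common here: FL and BM were so separated for 9 of the 33 members in ST-HSC, against 34.8% of all genes, and for 7 in MPP, against 32.9%. No member was called in MPP, and of these 3 Hoxa5 was not called in ST-HSC. For Hoxa3 the difference of FL from BM was 0.81 in ST-HSC and -0.40 in MPP. For Hoxa5 it was 0.48 in ST-HSC and -0.44 in MPP. For Hoxd8 it was -0.58 in ST-HSC and 0.36 in MPP. Seen the other way, ST-HSC of Hoxd8 lay below MPP in FL (-0.50) and above MPP in BM (0.44), again without overlap. The test of this difference is the interaction of ST-HSC minus MPP with source, which gave adjusted p of 0.129 for Hoxa3, 0.317 for Hoxa5 and 0.0825 for Hoxd8, so that none passed the threshold with all arrays.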

How the results depend on the processing

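Omitting each of the 18 arrays in turn gave 1 to 3 Hox calls for FL against BM averaged, 0 to 1 in LT-HSC and 0 to 6 in ST-HSC. The LT-HSC and MPP comparison ranged over 0 to 4 calls in FL and 0 to 1 in BM, with 1 to 8 for ST-HSC against MPP in FL and 0 to 1 in BM. The averages over both sources ranged over 2 to 8 calls for LT-HSC and 2 to 7 for ST-HSC against MPP, the interaction of ST-HSC minus MPP over 0 to 3, and the remaining comparisons stayed at 0. Hoxb6 in BM LT-HSC against MPP was not called (0 calls) with median centring, quantile normalization, trended and robust moderation, a replicate block, only the groups compared, a log2 difference of at least 1 as well, or without the sgEzh2-described arrays. Without the dimmest 30% of genes, calls numbered 0 for FL against BM averaged, 2 in ST-HSC and 2 for FL LT-HSC against FL MPP. Array weights, which give less weight to arrays that depart from their group, gave 3 for FL against BM averaged, 10 in ST-HSC, 3 in MPP, 6 between LT-HSC and MPP of FL, 3 for LT-HSC against ST-HSC in BM, 9 for ST-HSC against MPP in FL and 7 in BM, 10 for each average against MPP and 8 for the interaction of ST-HSC minus MPP. Calls over all genes rose with weights too, to 7260 for FL against BM averaged (4904 without weights) and 3606 in MPP (1067). They rose to 1478 between LT-HSC and MPP of FL (664) and to 4940 for LT-HSC against ST-HSC in BM (334). ST-HSC against MPP in BM had 7647 (1190). The averages of LT-HSC and of ST-HSC against MPP had 2870 (1730) and 5900 (1713), and the interaction had 3772 (36). Fitting only the groups compared gave 2 for FL against BM in MPP, 2 for LT-HSC against MPP in FL, 6 for ST-HSC against MPP in FL, 9 for its average and 3 for its interaction. Over all genes these fits called 2760, 868, 963, 2690 and 270 in the same order. Requiring a log2 difference of at least 1 left 0 for FL against BM averaged and in ST-HSC, 0 for FL LT-HSC against FL MPP and 0 for both averages. Without the sgEzh2-described arrays, 1 was left in FL against BM in ST-HSC and 0 in the average, in both FL comparisons with MPP and in both averages against MPP. Without the 4 narrow arrays, calls numbered 0 for FL against BM in ST-HSC, 1 in MPP, 5 for LT-HSC against MPP in FL, 3 in BM, 9 for ST-HSC against MPP in FL and 8 for LT-HSC against MPP averaged. The 99th percentile of receptors left 13 members above it. Over all genes, calls for ST-HSC against MPP in FL numbered 441, against 1751 with array weights, 963 with only the groups compared, 203 with the log2 difference, 33 without the sgEzh2-described and 1268 without the narrow arrays, and those for FL against BM in ST-HSC 3638, against 8827, 2566, 690, 1462 and 1207. No named call changed sign. The causes of these changes were not tested.

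Same-lettered arrays deviated together from their group means at r over 0.1 in 11 of 45 pairs (-0.464 to 0.534). The deviations of 3 arrays from their own mean depend on each other, so these values cannot decide whether the letters pair arrays. The replicate block left 3 calls for ST-HSC against MPP in FL, 4 for FL against BM in ST-HSC and 0 for LT-HSC against MPP in BM. The number of arrays, 3 a group, limits the precision, and signals of Hoxb9 and Hoxd8, and of Hoxa3 in FL MPP, lie near background.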
